A study of Mus musculus with 24 samples.

Results

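The heat-shock chaperones of the cytosol and the mitochondria were examined in the liver of 24 male mice by expression microarray. They were 45 genes chosen by name: the Hsp70, Hsp90, small heat-shock and Hsp110 proteins, the J-domain proteins, the exchange factors and co-chaperones that serve them, the cytosolic chaperonin TRiC, the mitochondrial chaperones and the transcription factors Hsf1 and Hsf2. The array carried 99 probes for these genes among 56605 probes, and 89 of the 99 were bright enough to be tested, out of 30003 tested probes. Of the 45 genes, 44 had a tested probe. The exception was Hspa1l, an Hsp70 best known from the testis, whose only probe was well above background on 0 of 24 arrays. Each gene is described by 1 probe, the brightest of its tested probes. By name, 14 genes whose transcription rises with heat-shock factor 1 are called inducible, and the other 31 are called constitutive. The label constitutive does not mean that a gene cannot also respond to that factor.

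All mice were of strain C57Bl6J of the F3 generation of lineages whose growing diet was supplemented with an oil, and neither the labels nor the methods give their age. The reference group (9 mice) descended from a lineage given high-oleic sunflower oil and ate the diet labelled STD, a low-fat diet. HFoleic mice (8) came from the same oleic lineage but ate the diet labelled HFD, rich in fat and sucrose, and HFepa mice (7) came from a lineage given fish oil rich in the omega 3 fatty acid EPA and ate that same high-fat diet. Each array held the RNA of 1 mouse, and EPA-lineage mice on the low-fat diet were not analysed here, so that HFepa against reference changes diet and lineage together. According to the methods the animals were killed under isoflurane while fasting. The comparisons asked how liver chaperone transcripts differed with the high-fat diet in each lineage, and between the lineages on that diet.

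Chaperones bind unfolded or partly folded proteins, and Hsp70 does so in cycles of ATP hydrolysis that J-domain proteins start and exchange factors end. Hsp90 takes over clients such as steroid receptors and kinases from Hsp70, with co-chaperones that load them, drive its ATPase or tune its cycle. When unfolded proteins accumulate, the transcription factor HSF1 is released from chaperones, forms trimers and binds heat-shock elements, arrays of inverted GAA units in the promoters of Hspa1a, Hspa1b, Hspb1, Dnajb1 and others. Heat and ischaemia are known inducers of this response in the liver.

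Promoters of the inducible members are shown first, because the heat-shock response is defined by the elements they hold. Promoter sequences came from RefSeq on build GRCm38.p6, and 36 of the 45 members had an entry. Each line holds the 250 bases before the transcription start, and capitals mark a pair of inverted units, GAANNTTC or TTCNNGAA, each of which reads the same on both strands.
Hspa1a (chr17:34972157-34972406, minus strand): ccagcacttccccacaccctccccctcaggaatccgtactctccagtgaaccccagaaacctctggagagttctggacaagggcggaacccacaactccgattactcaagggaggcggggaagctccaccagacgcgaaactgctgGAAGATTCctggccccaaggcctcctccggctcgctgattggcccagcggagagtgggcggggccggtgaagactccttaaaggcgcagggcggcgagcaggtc
Hspa1b (chr17:34959239-34959488, minus strand): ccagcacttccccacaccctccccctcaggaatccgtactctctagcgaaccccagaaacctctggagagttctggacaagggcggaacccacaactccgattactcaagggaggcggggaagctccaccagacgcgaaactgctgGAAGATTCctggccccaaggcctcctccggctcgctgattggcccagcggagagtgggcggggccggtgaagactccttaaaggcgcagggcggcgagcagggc
Hspb1 (chr5:135887669-135887918, plus strand): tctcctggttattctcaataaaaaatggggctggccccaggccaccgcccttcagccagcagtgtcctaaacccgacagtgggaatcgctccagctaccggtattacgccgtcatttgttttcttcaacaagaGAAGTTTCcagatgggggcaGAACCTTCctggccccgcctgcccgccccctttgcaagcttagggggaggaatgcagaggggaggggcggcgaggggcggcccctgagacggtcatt
Dnajb1 (chr8:83607925-83608174, plus strand): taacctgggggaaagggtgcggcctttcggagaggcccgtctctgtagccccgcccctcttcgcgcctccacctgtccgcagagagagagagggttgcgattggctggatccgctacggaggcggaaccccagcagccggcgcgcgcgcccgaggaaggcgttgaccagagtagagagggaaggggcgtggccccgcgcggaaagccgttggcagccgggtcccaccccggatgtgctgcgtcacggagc
The windows of Hspa1a and Hspa1b, neighbouring copies that encode nearly the same inducible Hsp70, differed at 3 of 250 bases and held a single pair at the same place, 104 bases before the start. Hspb1 held pairs 117 and 97 bases before its start, and the window of Dnajb1 held none.

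For 4 further members with a match, 30 bases round it are shown, because these genes lead the results below or, in Hspe1, hold the longest match.
Hsph1 (chr5:149636351-149636380, minus strand): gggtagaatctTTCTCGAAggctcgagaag
Dnaja1 (chr4:40722333-40722362, plus strand): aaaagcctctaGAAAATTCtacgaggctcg
Fkbp4 (chr6:128438789-128438818, minus strand): ccgcttctctaGAAAGTTCtccgctcccgc
Hspe1 (chr1:55088053-55088082, plus strand): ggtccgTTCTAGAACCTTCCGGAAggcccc
Hspe1, which shares its upstream region with its divergent neighbour Hspd1, held a longer run of 3 units (GAANNTTCNNGAA or TTCNNGAANNTTC, overlapping the pairs). Its marked stretch joins overlapping matches into 18 bases with 4 alternating units. A pair was present in 15 of the 36 members with a window (41.7%), against 3932 of all 27025 genes in the table (14.5%). Among inducible members it was present in 7 of 12, and among constitutive members in 8 of 24. The run of 3 units was found in 3 of the 36 members (8.33%), Dnajb6, Hspd1 and Hspe1, against 0.514% of all genes. It was present in 0 of 12 inducible members and in 3 of 24 constitutive members. These matches describe letters in a window and were not tested for binding.

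Between 28804 and 34432 probes per array were well above background, arrays of a group correlated at 0.974 to 0.996, and no member probe was saturated. Of 6 hepatocyte markers listed, 5 were found on the array, among them albumin, and all 5 were well above background in all 24 mice. Reference mouse 5 stood apart. It gave the lowest value of all 24 mice for 20 of the 44 members (45.5%) and for 17.8% of all 20110 tested genes, and the highest for 3 members and for 14.3% of all genes. Its summed signal of the stellate cell markers was 2.41 times the median of the other 23 mice, that of the bile duct markers 3.02 times and that of the adipocyte markers 7.76 times, while the hepatocyte sum was 0.97 times. The stellate cell and bile duct sums exceeded those of all other mice. The adipocyte sum did not, at 11745 against a highest of 14883 among the other 23. In whole liver, fewer cells of a type and less RNA per cell cannot be told apart. The values without this mouse are therefore given beside the results, and the part of the other cell types in them was not tested.

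Hspb1, Hsph1 and Dnaja1 were called higher than the reference in both high-fat groups, Fkbp4 and 5 other co-chaperones in HFoleic mice and Dnajb1 in HFepa mice. Changes are log2 differences with their standard error, and a gene is called where its Benjamini-Hochberg adjusted p from limma, over all 30003 probes, was below 0.05. Against the reference, 13 of the 44 members were called in HFoleic mice, 12 higher and 1 lower, where 8.06% of all tested genes were called, 4.53% higher and 3.53% lower. In HFepa mice 4 of 44 were called, all higher, against a background of 0.388%, with 0.199% higher. Between HFepa and HFoleic mice no member was called, as for all genes (0%). There, 10 of the 44 members reached an unadjusted p below 0.05, against 9.93% of all tested genes, and the methods' t-test also called 0. The reference mice are shared by the first pair of comparisons, so their values are set side by side and not correlated.

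Inducible members had a median difference of 0.26 in HFoleic and 0.39 in HFepa mice against the reference, while the median over all tested genes was -0.0062 in HFoleic and 0.00082 in HFepa. Of the 14 inducible members, 5 were called in HFoleic mice and 4 in HFepa mice, all higher. Constitutive members had medians of 0.06 in both comparisons, with 8 of 30 called in HFoleic (7 higher) and 0 of 30 in HFepa. Over probes, 20 of the 89 member probes were called in HFoleic mice (7.23% of all probes) and 5 in HFepa mice (0.393% of all probes). Without reference mouse 5, 19 member probes were called in HFoleic mice (7.2% of all probes) and 5 as before in HFepa mice (0.26%). In HFepa the genes were then Cacybp, Dnaja1, Dnajb1 and Hsph1, and Hspb1 was not among them. In HFoleic, Dnajc5 and Stip1 were then not called and Dnajb6 was called lower.

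**Figure D1:**
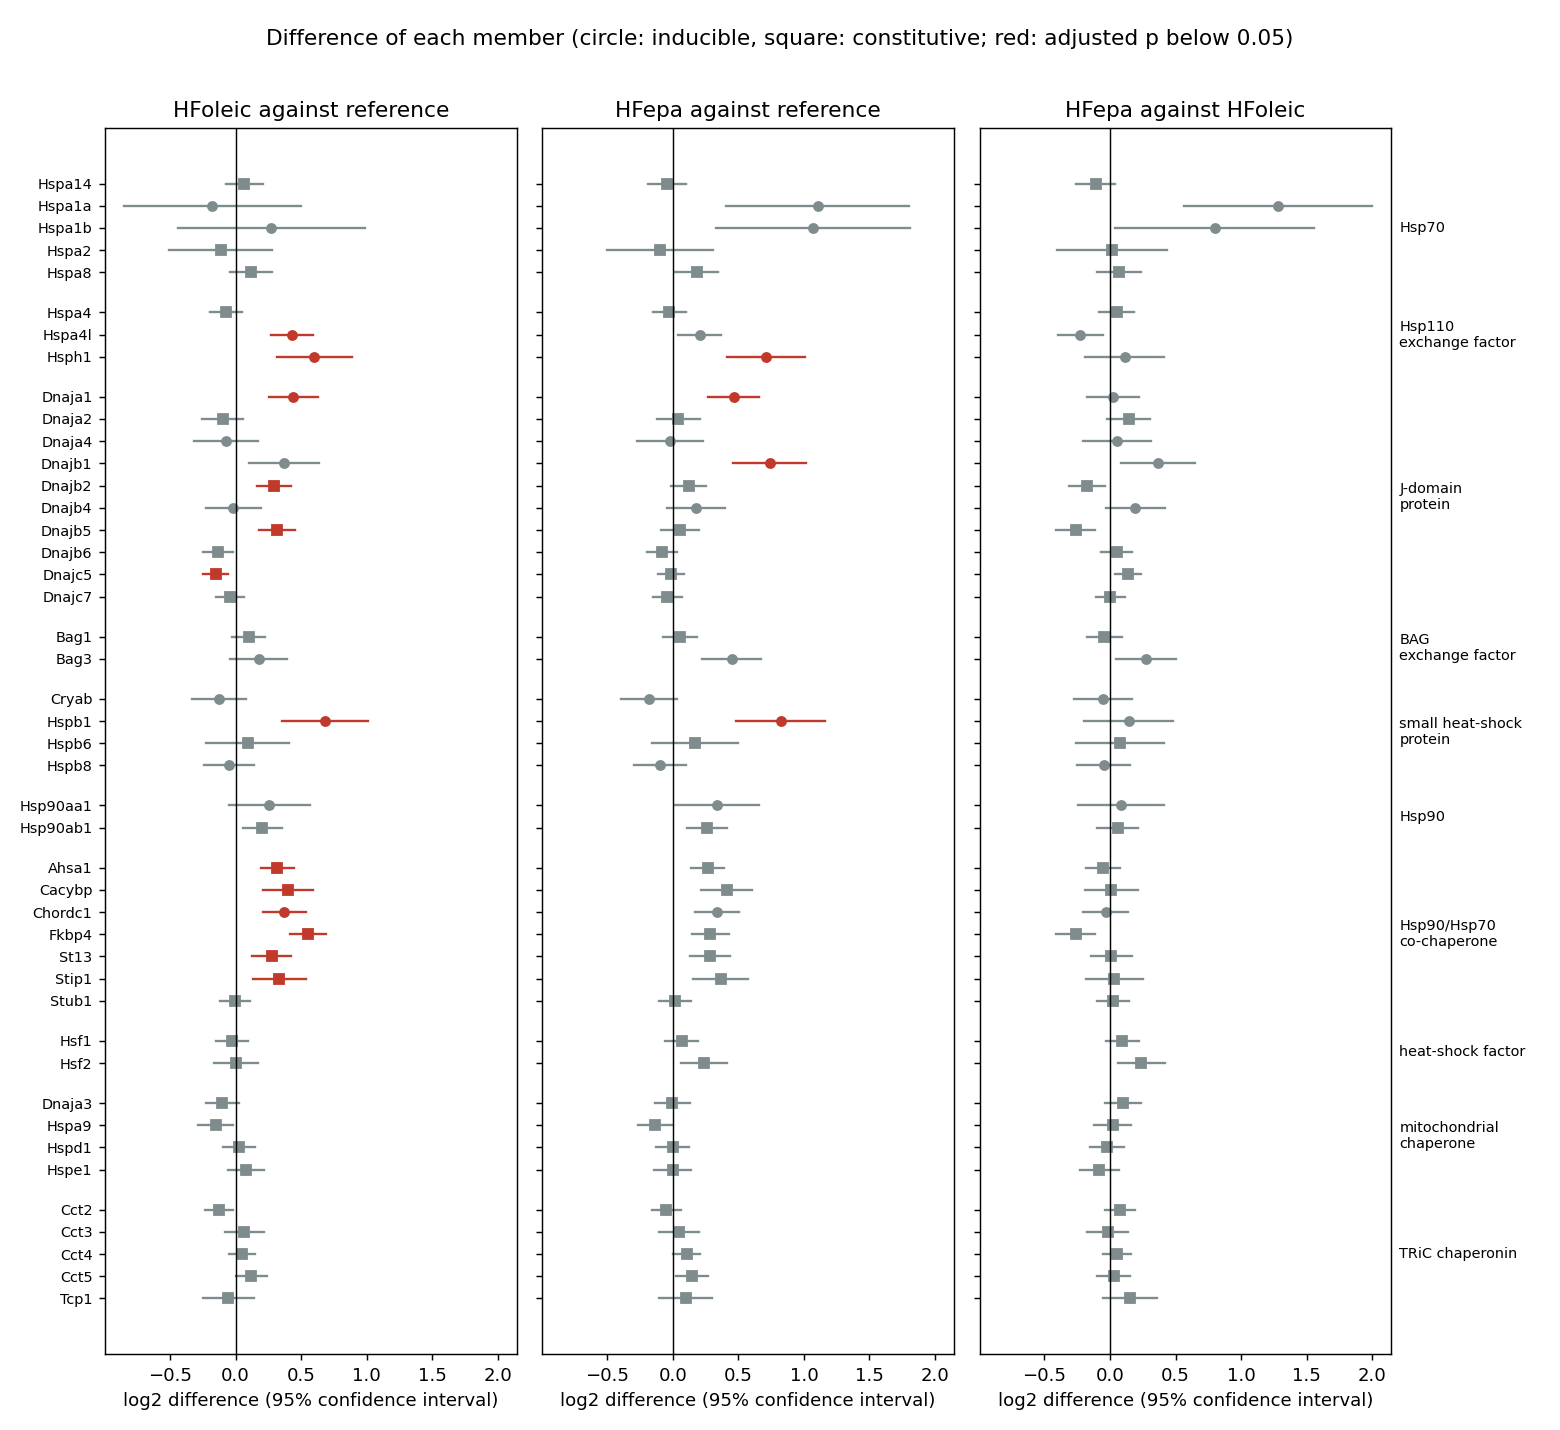
Log2 difference of each of the 44 tested members, 1 probe per gene, for the 3 comparisons, with the genes on the vertical axis grouped by role. Points are limma estimates and lines their 95% confidence intervals; red marks an adjusted p below 0.05, which 13 genes reach in the left panel, 4 in the middle and 0 on the right.

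Hspa1a and Hspa1b, the stress-inducible Hsp70 pair, had the widest differences of the 44 members in HFepa mice and the widest spread between reference mice (SD 0.83 and 0.91). The lowest, median and highest log2 signals of Hspa1a were 7.21, 8.09 and 9.58 in the reference mice, 7.14, 7.93 and 8.72 in HFoleic and 8.26, 9.17 and 10.30 in HFepa. Every HFepa mouse lay above the reference mean, but 2 of 7 exceeded all reference mice, since reference mice 7 and 4 reached 9.58 and 9.21. The difference was 1.11 ± 0.34 in HFepa mice (2.15-fold, 95% interval 0.41 to 1.80, adjusted p = 0.13) and -0.18 ± 0.33 in HFoleic mice (adjusted p = 0.821), and neither passed. The row of the slide as a block brought the HFepa difference past the threshold (1.22, adjusted p = 0.0324), and without reference mouse 7 the HFoleic difference was 0.0034 (adjusted p = 0.997). Between the high-fat groups Hspa1a differed by 1.28 ± 0.35 (2.43-fold, 95% interval 0.57 to 2.001, adjusted p = 0.212), with 5 of 7 HFepa mice above all HFoleic mice. That was the widest difference among the 44 members in that comparison, and it did not pass either.

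For Hspa1b the signals were 8.20, 10.07 and 11.53 in the reference mice, 9.32, 10.44 and 11.03 in HFoleic and 10.19, 11.53 and 12.02 in HFepa. Reference mouse 5 lay far below the rest at 8.20, and 3 of 7 HFepa mice lay above all reference mice. The difference was 1.07 ± 0.36 in HFepa (adjusted p = 0.164) and 0.27 ± 0.35 in HFoleic (adjusted p = 0.722); without reference mouse 5 they were 0.84 (adjusted p = 0.251) and 0.04 (adjusted p = 0.961). The arrays lay on 3 slides, each with 2 or 3 mice of every group. Within slides 1, 2 and 3, Hspa1a in HFepa against reference came to 1.87, 1.55 and -0.16, and Hspa1b to 2.10, 1.03 and 0.08. On slide 3 neither was higher by more than 0.08. The 60-base probes of the pair shared no run of identical bases longer than 5. They were compared only with each other, so whether either also binds the transcript of the other gene was not tested.

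The constitutive Hsp70 of the cytosol, Hspa8, which handles folding and clathrin uncoating in unstressed cells, was not called. Its signals were 14.96, 15.17 and 15.45 in the reference mice, 15.09, 15.33 and 15.47 in HFoleic and 15.11, 15.44 and 15.56 in HFepa, overlapping throughout. Differences were 0.12 ± 0.08 in HFoleic (adjusted p = 0.408) and 0.18 ± 0.08 in HFepa (adjusted p = 0.303), the same direction at all 4 of its tested probes. Hspa2 and Hspa14 were not called, at -0.11 and 0.07 in HFoleic and -0.10 and -0.04 in HFepa.

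**Figure D2:**
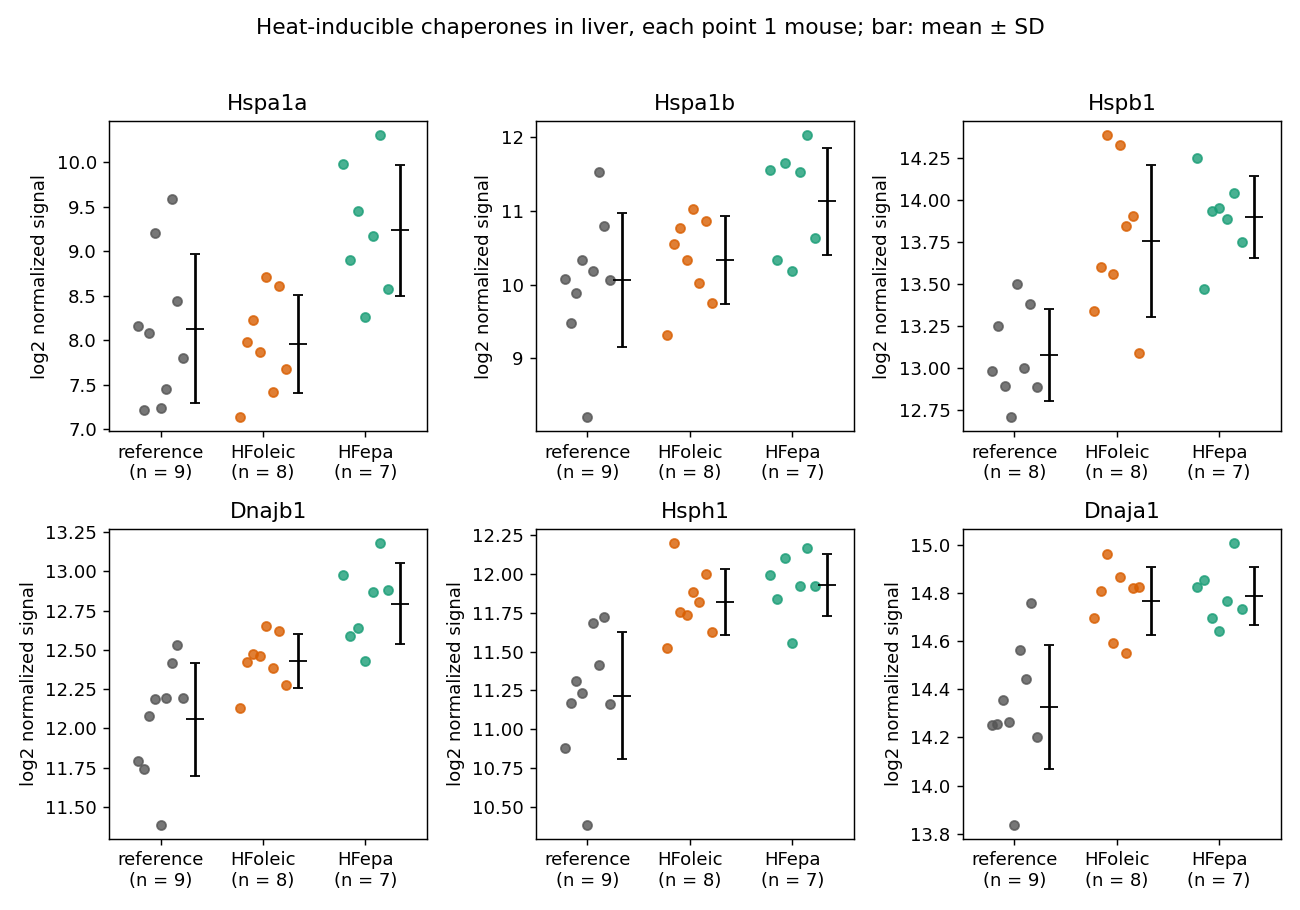
Log2 normalized signal (vertical axes, not starting at 0) of 6 inducible members in each mouse, by group on the horizontal axes, with the mean ± SD as a bar beside the points. The HFepa mean is the highest of the 3 in all 6 genes, close to the HFoleic mean in Dnaja1. Both high-fat groups lie above most reference mice in Hspb1, Hsph1 and Dnaja1, and 1 reference mouse has no value for Hspb1.

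Among the J-domain proteins, which hand clients to Hsp70 and start its ATP hydrolysis, 4 of 10 were called in HFoleic mice, 3 higher and 1 lower, and 2 in HFepa mice, both higher. Dnajb1, the inducible Hsp40 that restrains HSF1 and a gene the study also chose for RT-qPCR on these mice, had signals of 11.39, 12.19 and 12.53 in the reference mice, 12.13, 12.44 and 12.65 in HFoleic and 12.43, 12.87 and 13.18 in HFepa. In HFepa 6 of 7 mice exceeded every reference mouse, in HFoleic 2 of 8. It rose by 0.74 ± 0.13 in HFepa (1.67-fold, adjusted p = 0.0245), a difference next to that of Hspb1 among the 4 called, and was 0.37 ± 0.13 in HFoleic (adjusted p = 0.0824), short of the threshold. Against HFoleic it was 0.37 ± 0.14 in HFepa (0.08 to 0.65, adjusted p = 0.37), not called. Within the 3 slides the HFepa difference lay between 0.39 and 1.06.

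Dnaja1, a farnesylated Hsp40 that works with Hspa8 in protein import and refolding, was called in both high-fat groups. Signals were 13.84, 14.26 and 14.76 in the reference mice, 14.55, 14.82 and 14.96 in HFoleic and 14.64, 14.77 and 15.01 in HFepa. The upper reference mice overlapped both high-fat groups, and the lowest value was that of reference mouse 5. It rose by 0.44 ± 0.09 in HFoleic (adjusted p = 0.00463) and by 0.46 ± 0.09 in HFepa (adjusted p = 0.0282), and by 0.38 and 0.40 without reference mouse 5, still called. Its other 2 tested probes gave 0.24 and 0.16 in HFoleic and 0.04 and 0.06 in HFepa, none called.

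Dnajb2, a ubiquitin-binding J-protein known from neurons, and Dnajb5 rose in HFoleic mice, by 0.29 ± 0.06 (adjusted p = 0.00595) and 0.32 ± 0.07 (adjusted p = 0.00582). Dnajb2 signals were 11.52, 11.88 and 11.96 in the reference mice, 11.98, 12.13 and 12.33 in HFoleic and 11.85, 11.93 and 12.07 in HFepa, and all 8 HFoleic mice lay above all 9 reference mice; for 0.333% of all tested genes the HFoleic mice lay wholly above the reference. Dnajb5 signals were 7.50, 7.68 and 7.87 in the reference mice, 7.72, 8.03 and 8.25 in HFoleic and 7.59, 7.77 and 7.90 in HFepa, with 6 of 8 HFoleic mice above every reference mouse. Neither was called in HFepa, at 0.12 and 0.05. Against HFoleic they were -0.17 ± 0.07 (adjusted p = 0.385) and -0.26 ± 0.07 (adjusted p = 0.212) in HFepa, not called. A second Dnajb2 probe was also called in HFoleic (0.43, adjusted p = 0.0191), though the HFoleic mice there overlapped the reference mice. A second Dnajb5 probe was called in no comparison, and its groups overlapped.

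Dnajc5, the cysteine string protein of secretory vesicles, was the single member called lower, by 0.15 on the log2 scale in HFoleic mice (adjusted p = 0.0425). Its signals were 11.10, 11.26 and 11.45 in the reference mice, 11.03, 11.13 and 11.16 in HFoleic and 11.17, 11.26 and 11.34 in HFepa. All 7 HFepa mice lay above all 8 HFoleic mice, which held for 0.0597% of all tested genes, while the reference mice overlapped both. The difference between the high-fat groups was 0.14 ± 0.05 (adjusted p = 0.34), not called, and the other 2 Dnajc5 probes gave 0.08 and -0.02 in HFoleic, neither called. The call was lost in 14 of 24 fits that left out 1 mouse, among them the fit without reference mouse 5 (-0.15, adjusted p = 0.0633). The remaining J-domain members, Dnaja2, Dnaja4, Dnajb4, Dnajb6 and Dnajc7, were called in no comparison, and their differences from the reference lay between -0.13 and 0.18. Without reference mouse 5, Dnajb6 was -0.17 in HFoleic (adjusted p = 0.0461), which is past the threshold.

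Hspb1, the small heat-shock protein known as Hsp25 that holds unfolded proteins and binds actin, showed the largest difference among called members in both high-fat groups. It was also an RT-qPCR gene of the study on these mice, so that its choice is not independent of them. The lowest, median and highest signals were 12.71, 12.99 and 13.50 in the reference mice, 13.09, 13.72 and 14.38 in HFoleic and 13.47, 13.93 and 14.25 in HFepa, with 1 reference value missing because its spot was marked an outlier. In HFoleic 6 of 8 mice and in HFepa 6 of 7 mice lay above the 8 reference mice with a value. Hspb1 rose by 0.68 ± 0.16 in HFoleic (1.6-fold, adjusted p = 0.0102) and 0.82 ± 0.17 in HFepa (1.77-fold, adjusted p = 0.0282), while the groups differed by 0.14 ± 0.17 (-0.20 to 0.48, adjusted p = 0.83). Without reference mouse 5 the HFepa difference was 0.77 (adjusted p = 0.0516), no longer called, and the HFoleic difference 0.63 (adjusted p = 0.0203).

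The other small heat-shock proteins gave no call. Hspb8, the partner of Bag3 in selective autophagy, was -0.05 in HFoleic and -0.10 in HFepa, and Cryab, the lens crystallin that muscle also makes, was -0.13 and -0.18. Reference mouse 5 had the highest Cryab signal of all mice, 9.39, and the lowest signal of 9 of the 14 inducible members. Hspb6 was 0.09 and 0.17.

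Hsph1, the Hsp110 that frees Hsp70 of ADP and keeps aggregated proteins soluble, rose in both high-fat groups. Signals were 10.39, 11.23 and 11.72 in the reference mice, 11.52, 11.79 and 12.20 in HFoleic and 11.56, 11.92 and 12.16 in HFepa. Above all reference mice lay 6 of 8 HFoleic and 6 of 7 HFepa mice. Its difference was 0.60 ± 0.14 in HFoleic (1.52-fold, adjusted p = 0.00877) and 0.71 ± 0.14 in HFepa (1.64-fold, adjusted p = 0.0282), a second probe gave 0.58 and 0.73, both called, and between the groups it was 0.11 ± 0.15 (-0.19 to 0.41). Without reference mouse 5 the differences were 0.50 and 0.61, both still called.

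Hspa4l, an inducible relative of Hsph1, was called higher in HFoleic mice. Signals were 9.19, 9.37 and 9.68 in the reference mice, 9.64, 9.78 and 10.08 in HFoleic and 9.29, 9.60 and 9.78 in HFepa, and 7 of 8 HFoleic mice lay above every reference mouse. It rose by 0.43 ± 0.08 in HFoleic (adjusted p = 0.00183), was 0.21 ± 0.08 in HFepa (adjusted p = 0.241) and -0.23 ± 0.08 between the groups (adjusted p = 0.349). In HFoleic 3 of its 4 tested probes were called. The remaining probe was not called and ran the other way between the high-fat groups. Its deviations from the reference mean were -0.143 to 0.527 in HFoleic and 0.089 to 0.821 in HFepa. The constitutive Hspa4 was -0.08 and -0.03 against the reference, not called.

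Bag3, an inducible exchange factor that steers Hsp70 clients to autophagy, was higher in HFepa mice without passing. Its signals were 11.76, 12.09 and 12.49 in the reference mice, 11.91, 12.30 and 12.49 in HFoleic and 12.11, 12.54 and 12.82 in HFepa, and 5 of 7 HFepa mice lay above all reference mice. The difference was 0.45 ± 0.11 in HFepa (adjusted p = 0.0597), 0.18 ± 0.11 in HFoleic (adjusted p = 0.358) and 0.27 ± 0.11 between them (adjusted p = 0.42). The row of the slide as a block brought the HFepa difference past the threshold (adjusted p = 0.0288). Bag1 was 0.10 and 0.06.

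Neither isoform of Hsp90, the clamp-shaped chaperone of kinases and receptors, passed the test. Hsp90aa1, the inducible isoform, had signals of 12.82, 13.08 and 13.68 in the reference mice, 12.97, 13.28 and 13.75 in HFoleic and 12.93, 13.27 and 13.88 in HFepa, and differences of 0.26 ± 0.15 in HFoleic (adjusted p = 0.344) and 0.34 ± 0.16 in HFepa (adjusted p = 0.339). Hsp90ab1, the constitutive isoform, had 15.16, 15.40 and 15.64 in the reference mice, 15.44, 15.62 and 15.74 in HFoleic and 15.31, 15.68 and 15.86 in HFepa, with all 8 HFoleic mice above the reference mean. It was 0.20 ± 0.07 in HFoleic (adjusted p = 0.0865) and 0.26 ± 0.07 in HFepa (adjusted p = 0.103). Without reference mouse 6, Hsp90ab1 was 0.24 in HFoleic (adjusted p = 0.0437), past the threshold. Both isoforms overlapped between all groups.

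Of 7 co-chaperones of Hsp90 and Hsp70, 6 were called higher in HFoleic mice and 0 in HFepa mice, where 6 of the 7 reached an unadjusted p below 0.05 (14% of all tested genes did so). Their median difference was 0.33 in HFoleic and 0.29 in HFepa. Fkbp4, the immunophilin FKBP52 that joins Hsp90 in steroid receptor complexes, had the smallest adjusted p of all members. Its signals were 12.60, 12.75 and 13.10 in the reference mice, 13.21, 13.36 and 13.48 in HFoleic and 12.90, 13.09 and 13.19 in HFepa. At the probe shown, all 8 HFoleic mice lay above every reference mouse and every HFepa mouse. For 0.0796% of all tested genes the HFepa mice lay wholly below HFoleic. At the other tested Fkbp4 probes the HFoleic mice overlapped both other groups. Fkbp4 rose by 0.55 ± 0.07 (1.46-fold, adjusted p = 0.000171) at the probe shown and by 0.50 and 0.62 at the others, both called. In HFepa it was 0.29 ± 0.07 against the reference (adjusted p = 0.0597) and -0.26 ± 0.07 against HFoleic (-0.41 to -0.12, adjusted p = 0.212), neither called.

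Ahsa1, the activator of the Hsp90 ATPase, had signals of 14.69, 14.80 and 15.19 in the reference mice, 15.04, 15.17 and 15.29 in HFoleic and 15.00, 15.10 and 15.25 in HFepa. It rose by 0.32 ± 0.06 in HFoleic (adjusted p = 0.00274) and was 0.26 ± 0.06 in HFepa (adjusted p = 0.055). Chordc1, an inducible Hsp90 partner, had 9.79, 10.08 and 10.52 in the reference mice, 10.23, 10.45 and 10.67 in HFoleic and 10.31, 10.41 and 10.51 in HFepa, and rose by 0.37 ± 0.08 in HFoleic (adjusted p = 0.00579), with 0.34 ± 0.08 in HFepa (adjusted p = 0.0611). At the probe used for each gene, every high-fat mouse lay above the reference mean, while the highest reference mice reached into both high-fat groups. A second Chordc1 probe was also called in HFoleic and not in HFepa. At that probe HFepa mouse 2 lay below the reference mean, with a deviation of -0.019.

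Cacybp, which binds the ubiquitin ligase complex of Siah1, gave signals of 10.25, 10.89 and 11.14 in the reference mice, 11.04, 11.20 and 11.49 in HFoleic and 11.10, 11.20 and 11.44 in HFepa. Reference mouse 5 lay 0.47 below the next reference mouse. The difference was 0.40 ± 0.09 in HFoleic (adjusted p = 0.00859) and 0.41 ± 0.10 in HFepa (adjusted p = 0.0528), the latter past the threshold with the row of the slide as a block (adjusted p = 0.0491). The differences were 0.33 (adjusted p = 0.00739) and 0.34 (adjusted p = 0.048) without reference mouse 5, both called.

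Stip1, the adaptor Hop that bridges Hsp70 and Hsp90, gave 9.54, 9.99 and 10.47 in the reference mice, 10.20, 10.33 and 10.60 in HFoleic and 10.05, 10.44 and 10.64 in HFepa. St13, the Hsp70-interacting protein Hip, gave 11.56, 11.79 and 12.12 in the reference mice, 11.96, 12.12 and 12.20 in HFoleic and 11.89, 12.11 and 12.32 in HFepa. Stip1 rose by 0.33 ± 0.10 (adjusted p = 0.0382) and St13 by 0.27 ± 0.07 (adjusted p = 0.0182) in HFoleic mice. Their HFepa differences were 0.37 ± 0.10 (adjusted p = 0.0994) and 0.28 ± 0.07 (adjusted p = 0.0747), not called. Without reference mouse 5 Stip1 was 0.27 in HFoleic (adjusted p = 0.0621), no longer called. Over all mice its second probe gave 0.17 in HFoleic and 0.50 in HFepa, neither called. Between the high-fat groups that probe gave 0.33, not called, against 0.03 at the probe used. Stub1, the ubiquitin ligase CHIP, was not called, at -0.0035 in HFoleic and 0.02 in HFepa.

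**Figure D3:**
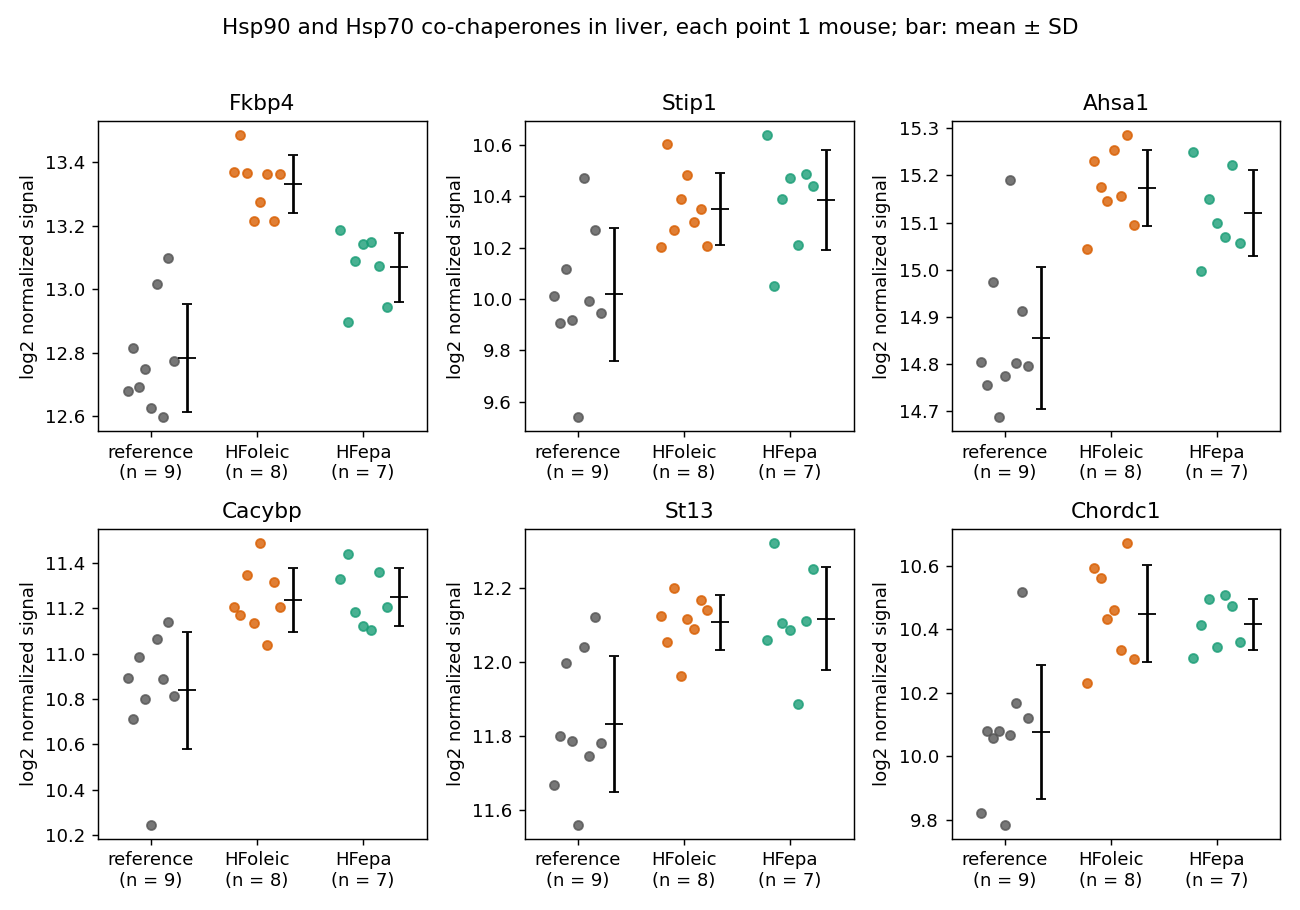
Log2 normalized signal (vertical axes, not starting at 0) of 6 co-chaperones in each mouse by group, with the mean ± SD as a bar. In Fkbp4 the 8 HFoleic mice, from 13.21 to 13.48, lie above both other groups, and in the other 5 genes both high-fat groups lie above the reference mean with overlapping points.

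Hsf1, the master factor of the response, is controlled mainly as a protein, and its transcript did not pass in any comparison. Its signals were 9.38, 9.64 and 9.76 in the reference mice, 9.34, 9.58 and 9.68 in HFoleic and 9.58, 9.63 and 9.81 in HFepa. Differences were -0.03 ± 0.06 in HFoleic and 0.07 ± 0.06 in HFepa. Hsf2 was 6.9e-05 in HFoleic and 0.24 ± 0.08 in HFepa (adjusted p = 0.193).

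No chaperone of the mitochondrial matrix was called in any comparison. Hspd1 (Hsp60) and Hspe1 (Hsp10) form the mitochondrial folding chamber. The signals of Hspd1 were 14.62, 14.82 and 15.04 in the reference mice, 14.67, 14.83 and 14.99 in HFoleic and 14.60, 14.81 and 14.94 in HFepa. Those of Hspe1 were 13.84, 13.98 and 14.16 in the reference mice, 13.85, 14.07 and 14.29 in HFoleic and 13.63, 14.03 and 14.11 in HFepa. The groups overlapped in both. Hspd1 was 0.02 ± 0.06 in HFoleic and -0.0021 ± 0.06 in HFepa, with a 95% interval of -0.13 to 0.12, and Hspe1 was 0.08 ± 0.07 and -0.00077 ± 0.07. Hspa9, the mitochondrial Hsp70 of import, was -0.15 ± 0.06 (adjusted p = 0.154) and -0.13 ± 0.07, and Dnaja3, its J-protein, was -0.10 and -0.0026.

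TRiC, the ring that folds actin and tubulin, showed no call among its 5 measured subunits Cct2, Cct3, Cct4, Cct5 and Tcp1 at the probe used for each. A dimmer Cct4 probe was 0.21 in HFoleic (adjusted p = 0.0787), and passed with the row of the slide as a block (0.22, adjusted p = 0.037) and without HFoleic mouse 8 (0.25, adjusted p = 0.0436). At the probes used, the differences of the 5 subunits ran from -0.13 to 0.12 in HFoleic and from -0.05 to 0.15 in HFepa. Signals of Cct5, which had the highest differences of the ring, were 13.31, 13.50 and 13.79 in the reference mice, 13.48, 13.60 and 13.73 in HFoleic and 13.50, 13.65 and 13.75 in HFepa.

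Among 5 inducible members, most pairs varied together between mice of a group. For these 5, the log2 deviations of each mouse from its group mean were correlated over all mice, 24 or, with Hspb1, 23, together with the cold-inducible Rbm3 and Cirbp, 20 pairs in all, with two-sided permutation tests of the mice within groups and adjustment over the 20 pairs. Of the 10 pairs among the heat-shock genes, 8 passed by Pearson's r and 9 by Spearman's rho. By r over all mice, Hspa1b with Dnajb1 came first (r = 0.87, rho = 0.82, permutation p = 1e-05 each, the smallest these permutations can give, adjusted p = 1e-04), and r was 0.79 without the 2 mice farthest from the median in Hspa1b. Hspa1a with Hspa1b followed (r = 0.85, rho = 0.89, permutation adjusted p = 1e-04), then Dnajb1 with Hsph1 (r = 0.81, rho = 0.73, permutation adjusted p = 0.0002) and Hspa1b with Hsph1 (r = 0.76, rho = 0.74, permutation adjusted p = 0.0006), these adjusted values being for r.

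Hspb1 gave lower coefficients with the Hsp70 genes, a difference that was not tested. With Hspa1a it gave r = 0.35 and rho = 0.39 (permutation adjusted p = 0.147 and 0.128), with Hspa1b r = 0.56 and rho = 0.61 (adjusted p = 0.0109 and 0.0124 by permutation). Without reference mouse 5, 6 of the 10 pairs passed by Pearson's r and 9 by rho. Of the 10 pairs with Rbm3 or Cirbp, 0 passed, with r between -0.44 and 0.18. Within groups the sign could differ. Dnajb1 with Rbm3 gave r of -0.58 in reference, -0.29 in HFoleic and 0.80 in HFepa, and Hsph1 with Rbm3 -0.66, -0.38 and 0.64. Hspb1 with Rbm3 was negative in every group. These values within groups were not tested. The deviations share an array, and with it RNA quality and labelling; their part was not tested.

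**Figure D4:**
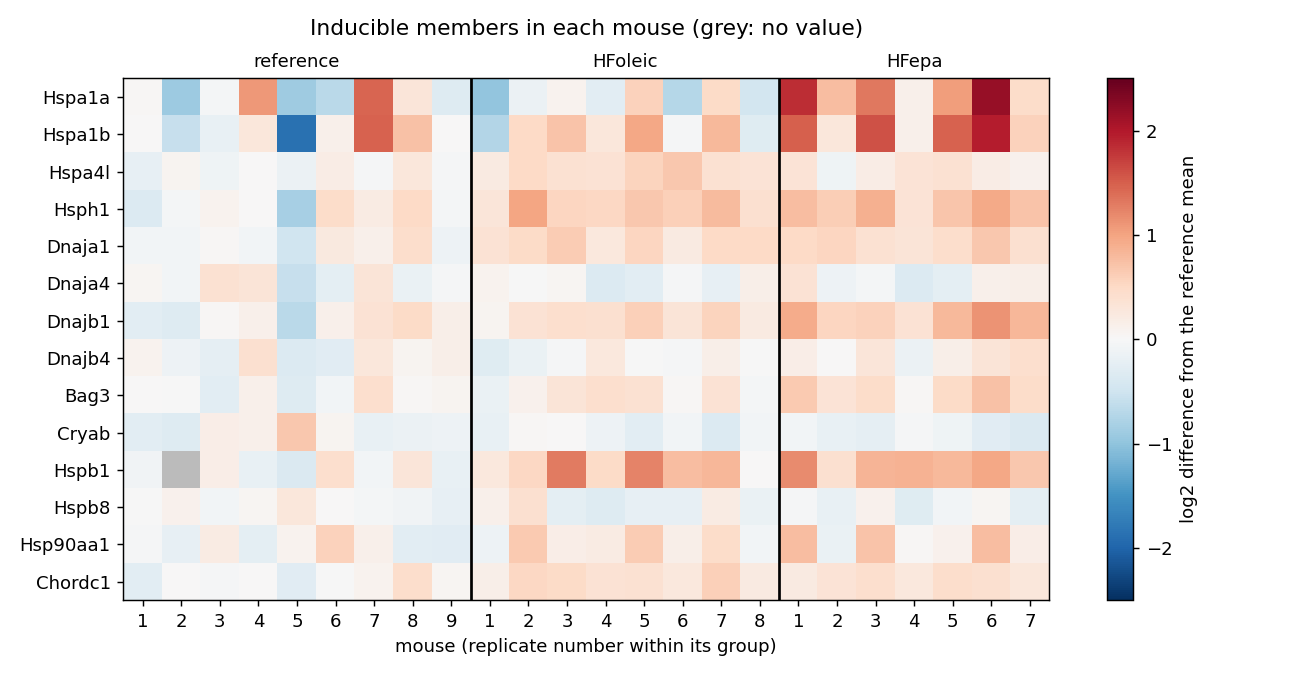
Log2 difference of each mouse (columns, by group and replicate number) from the reference mean for the 14 inducible members (rows); the colours run from blue, below the reference mean, to red, above it, and the values span -1.86 to 2.17. Reference mouse 5 is low in 9 members, and HFepa mouse 6 is the highest of all mice in 5.

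**Figure D5:**
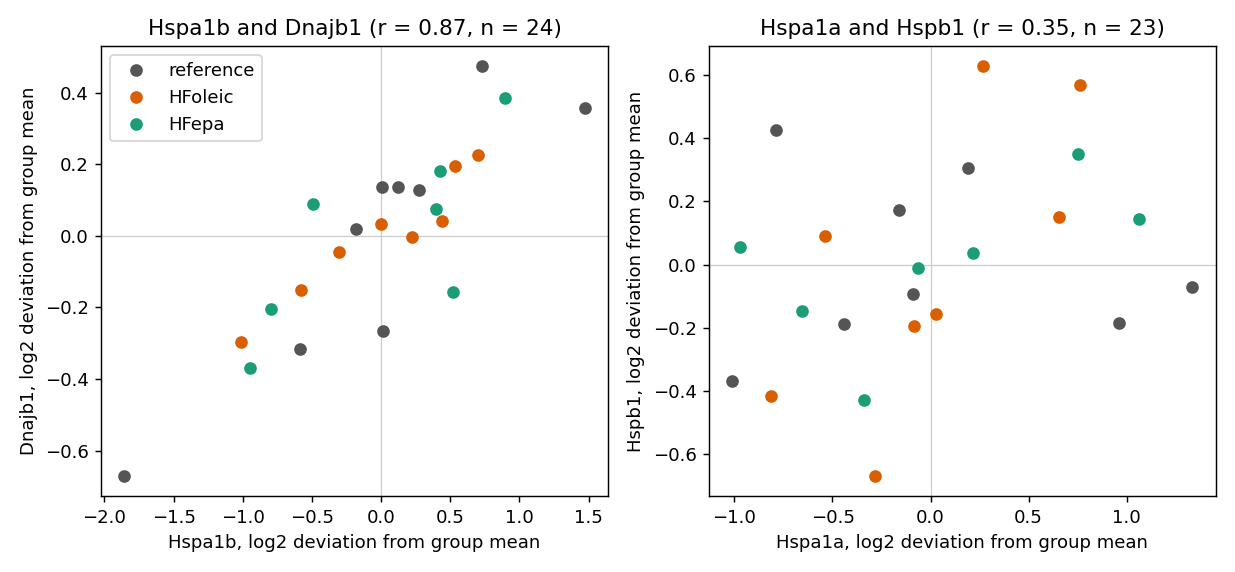
Deviation of each mouse from its group mean (log2) for Hspa1b against Dnajb1 in 24 mice and Hspa1a against Hspb1 in 23 mice, coloured by group. The left panel shows a close relation (r = 0.87) in all mice; within groups r is 0.90 in reference, 0.96 in HFoleic and 0.75 in HFepa. In the right panel (r = 0.35) it is -0.08, 0.68 and 0.57 in that order.

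Within the 3 slides, the HFepa difference lay between 0.68 and 1.13 for Hspb1, 0.32 and 1.14 for Hsph1 and 0.23 and 0.67 for Dnaja1, and the HFoleic difference of Fkbp4 between 0.42 and 0.73. HFepa mouse 6 had the highest value of all 24 in Bag3, Dnaja1, Dnajb1, Hspa1a and Hspa1b, yet the median inducible difference in HFepa was 0.36 without it. In HFepa mice between 9 and 13 of the 14 inducible members lay above the reference mean in each mouse, in HFoleic mice between 7 and 12 and in reference mice between 3 and 11, so that the ranges overlapped. The 4 calls in HFepa had adjusted p between 0.0245 and 0.0282: leaving out 1 mouse at a time gave from 0 to 13 called member probes, against 18 to 21 in HFoleic. It was 0 without HFepa mouse 1, 2, 6 or 7 or reference mouse 1 or 2, 1 without reference mouse 4, 9 without reference mouse 6 and 13 without reference mouse 8. The HFepa calls over all probes moved too, from 118 (0.393%) with all mice. They were 3, 0, 0 and 3 without HFepa mouse 1, 2, 6 and 7, and 7 and 0 without reference mouse 1 and 2. Without reference mouse 4 they were 47 (0.156%), without mouse 6 159 (0.523%) and without mouse 8 496 (1.62%).

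Other genes of the pathway, 48 listed beyond the 45 members, included further TRiC subunits, prefoldin, more co-chaperones and J-domain proteins, and mitochondrial proteases. Of 46 tested, 3 were called in HFoleic mice and 0 in either other comparison. Hspa13, a microsomal Hsp70, rose by 0.51 (adjusted p = 0.0034) and Hspb11, now known as the ciliary transport protein Ift25, by 0.33 (adjusted p = 0.00229), whereas Fkbp5, a glucocorticoid-induced immunophilin, fell by 0.50 (adjusted p = 0.028). The median difference over the 46 genes was 0.02 in both high-fat groups.

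Chaperones of the endoplasmic reticulum form a separate set driven by the unfolded protein response. Of 16, 14 were called higher in HFoleic mice, with a median difference of 0.63, and 0 in HFepa mice, with a median of 0.22. All 16 were lower in HFepa than in HFoleic, median -0.44, where no gene was called. In the same comparison 10 of the 14 inducible members were higher in HFepa, against 51.9% of all tested genes. Their median was 0.10, and 0.05 without HFepa mouse 6. Constitutive members had a like share, 21 of 30, with a median of 0.03. Over probes it was 16 of 26 inducible and 39 of 63 constitutive. The cold-inducible RNA-binding genes Rbm3 and Cirbp, whose transcripts rise when body temperature falls, fell by 0.77 (adjusted p = 0.000247) and by 0.84 (adjusted p = 0.00179) in HFoleic mice, both called. In HFepa mice they were -0.44 and -0.52, not called at the probe used. Of the other 3 Rbm3 probes, 1 was called in HFepa (-0.47, adjusted p = 0.0245), and 1 ran the other way without a call, 0.35 in HFoleic and 0.55 in HFepa. The part of body temperature was not tested.

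The time of day at death is not given in the labels. A clock score, the mean log2 signal of 8 Per-phase genes minus that of 5 Bmal1-phase genes, was -0.04 ± 0.51 (SD, n = 9) in reference, 0.68 ± 0.64 (n = 8) in HFoleic and 0.51 ± 0.94 (n = 7) in HFepa mice. With this score as a covariate, 13 instead of 20 member probes were called in HFoleic and 0 instead of 5 in HFepa, and the median inducible differences were 0.29 and 0.42. Over all probes the calls were then 1023 (3.41%) in HFoleic and 4 (0.0133%) in HFepa, instead of 2170 (7.23%) and 118 (0.393%). Among single cell-type markers, Lrat of stellate cells rose by 0.56 (adjusted p = 0.0015) and Sox9 of the bile duct fell by 0.65 (adjusted p = 0.0279) on the log2 scale in HFoleic mice, where all 3 bile duct markers tested lay below the reference (median -0.33). Of the 5 stellate cell markers, 3 lay above the reference there and 2 below, with a median of 0.0045 and a lowest of -0.47. The part of these markers in the member differences was not tested. Marker sums overlapped between the 3 groups for all 9 cell types listed; that of the stellate cell ran from 16024 to 53929 in reference, 17985 to 27870 in HFoleic and 20354 to 29099 in HFepa mice. Cpa1 of the exocrine pancreas was well above background on no array.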

How the data were processed

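Liver RNA of 24 mice was labelled with Cy3 and hybridised to 1-colour Agilent arrays, 1 mouse per array. The authors deposited scanner files (Agilent Feature Extraction 10.10.1.1) with unnormalized median signal intensity per spot, and a log2 value table that, per their methods, was filtered and quantile normalized; its 32176 probes correlated with their own arrays at 0.9997 or above, and it was used as an alternative. No columns of per-sample values were left unused.

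From the intensities, log2 median signals were averaged over spots of a probe without control and outlier spots (Hspb1 thus has no value in reference mouse 2), probes well above background on 75% of arrays of a group were kept (30003 of 56605), and arrays were quantile normalized. Group means were fitted with limma 3.58.1 (R 4.3.3), with 3 two-sided contrasts and Benjamini-Hochberg adjustment over all tested probes. The number of arrays limits the precision. On simulated data the procedure was tested with known changes. Slide and row came from the array position. Mice of a group are separate animals.

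Named in full were members with a called probe and 12 chosen by name; the rest are given by role. The members, gene lists and tests were chosen with earlier results of these data known. The cold-inducible genes are named with their results. Clock and endoplasmic reticulum lists are given by summary values only, and of the cell markers only some are named. Alternatives covered the value table, processed signal, background correction, filter, blocks, a clock covariate, fits of 2 groups, the methods' t-test and leaving out each mouse. For the correlations, the value table and leaving out reference mouse 5 were alternatives chosen after seeing the data. Groups come from the labels.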

Additional observations from a re-analysis of the deposited data

Results flagged for a closer look

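In 2 of 69 sets of values, 1 gene in 1 group each, a single mouse lay apart from the rest of its group by Dixon's test at the 95% level, where chance gives about 1 in 20. For Cacybp, reference mouse 5 had a log2 signal of 10.2466, against 10.7116 in the nearest reference mouse. For Hspe1, HFepa mouse 2 had 13.6295, against 13.994 in the nearest HFepa mouse.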

How the results depend on the processing

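Against the reference, 20 member probes were called in HFoleic and 5 in HFepa mice. In HFoleic the count was 17 to 21 under the other processing (2.56% to 9.04% of all probes), but 13 with the clock score as a covariate (3.41%), and 18 to 21 when 1 mouse was left out (5.32% to 9.99%). In HFepa it was 3 with the processed signal (0.2% of all probes), 0 without a filter on dim probes (0%) and 8 with the row of the slide as a block (0.393%). It was 3 with the replicate block (0.347%), 0 with the clock score (0.0133%) and 1 with only the 2 groups compared (0.0433%). By the methods' t-test it was 0 (0% of all probes), with 30 member probes at an unadjusted p below 0.05. It was 7 with normexp (0.44%) or with probes well above background on all arrays (0.651%). Leaving out 1 mouse gave 0 to 13, where 0% to 1.62% of all probes were called. The causes were not tested. Between HFepa and HFoleic mice it was 0 throughout, with 13 at an unadjusted p below 0.05 by the methods' t-test. The median inducible difference stayed within 1 SD between mice (0.17) in all settings, and over left-out mice ranged from 0.19 to 0.36 in HFoleic, 0.36 to 0.44 in HFepa and 0.05 to 0.15 between them. Same-numbered mice are different animals whose deviations correlated at -0.168 to 0.103, -0.0708 to 0.348 and -0.298 to 0.0436 in the 3 comparisons, best with their own number in 2 of 8, 1 of 7 and 0 of 7, so the replicate block (18 probes in HFoleic, 3 in HFepa, 0 between) pairs numbers only.

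Among the members named in full, the values whose sign turned were not called. With the processed signal the value was 0.017 for Hsf1 in HFoleic mice, 0.0176 for Dnajc5 in HFepa mice, 0.0152 for Hspe1 in HFepa mice, -0.021 for Cacybp between the high-fat groups and -0.00759 for St13 between the high-fat groups. With normexp correction the value was 0.00237 for Dnajc5 in HFepa mice, 0.0193 for Hspd1 in HFepa mice and 0.00612 for Hspe1 in HFepa mice. With the slide as a block the value was 0.00282 for Hspd1 in HFepa mice, 0.00749 for Hspe1 in HFepa mice and -0.00928 for Cacybp between the high-fat groups. With the row of the slide as a block the value was 0.000502 for Hspd1 in HFepa mice. With the replicate block the value was 0.00401 for Hspd1 in HFepa mice. With the clock score the value was -0.0306 for Hspd1 in HFoleic mice and 0.00903 for Dnajc5 in HFepa mice. Over the fits that left out 1 mouse, values that turned ranged from -0.0206 to 0.0468 for Cacybp between the high-fat groups, -0.0086 to 0.0891 for Stip1 between the high-fat groups, -0.0259 to 0.0329 for Hspd1 in HFepa mice, -0.0203 to 0.0598 for Hspe1 in HFepa mice, -0.0487 to 0.0103 for Hspd1 between the high-fat groups, -0.0231 to 0.0494 for St13 between the high-fat groups, -0.0133 to 0.0517 for Dnaja1 between the high-fat groups, -0.0536 to 0.00316 for Hsf1 in HFoleic mice, -0.00126 to 0.0514 for Hspd1 in HFoleic mice, -0.292 to 0.00345 for Hspa1a in HFoleic mice and -0.0365 to 0.00787 for Dnajc5 in HFepa mice.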
